A study of Mus musculus with 2 samples.

Results

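The semaphorins, plexins, ephrins, Eph receptors, Slits, Robos, netrins and Unc5 receptors are the classic axon guidance genes, read here in the stroma of the mouse salivary gland. Members were all row names of the all-cells table that belong to these families by symbol, which gave 61 of 20140 genes. They comprised 20 semaphorins, 9 plexins, 5 ephrin-A and 3 ephrin-B ligands, 6 EphA and 5 EphB receptors, 2 Slits, 4 Robos, 3 netrins and 4 Unc5 receptors. The rule reads gene symbols alone.

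Droplet single-cell RNA libraries were made with the 10X Genomics system from female C57BL6/J mice aged 14 weeks. In the ligated group a metal clip had closed the main ducts of both the submandibular and the sublingual gland for 14 days, and in the mock group the ducts were located but not clipped, with the same 14 days of healing. Each group was 1 library made from 2 pooled glands, and both libraries were depleted of EpCAM-bearing epithelial cells, Ter119-bearing red blood cells and dead cells, so neither represents the whole gland. With 1 library per group there is no replicate spread, and every difference between the groups below compares 2 libraries and carries no test.

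Semaphorins are secreted or membrane-bound ligands, and plexins are their receptors; most class 3 semaphorins need a neuropilin as coreceptor. Ephrins are held on the cell surface, the A class by a lipid anchor and the B class by a membrane span, and signal on contact through Eph receptor tyrosine kinases. Slits act through Robo receptors, and netrins through Dcc and Unc5 receptors. Outside the nervous system the same families guide vessel sprouting, set the border between arteries and veins, and steer immune and mesenchymal cells.

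All levels are the authors' deposited cluster means, in UMIs of the gene per 10000 UMIs of the cell (a UMI tags 1 captured RNA molecule). Differences are log2((ligated + 0.1)/(mock + 0.1)), and a difference is called here where the higher value is at least 0.5 and the difference at least 1 in size. The files give no depth; cell numbers recovered from the means were 4199 for mock and 11406 for ligated. Of the 12 clusters, 9 held at least 50 cells in each library and were compared. Clusters carry names from marker genes: 11 of 11 endothelial markers were at 0.2 or more in clusters 0 and 4, as were 11 of 11 fibroblast markers in cluster 3 and 10 of 10 mural markers in cluster 6. Erythroid-like cluster 10, mural-like cluster 6 and clusters 8 and 11 also held 11 of 11 endothelial markers at that level. Clusters 8 and 11 stayed unnamed. Set against the mean of their own library, markers of other cell types had a higher median in ligated in every compared cluster. In mural-like cluster 6 this median was 10.2% of the library mean in mock and 22.8% in ligated. In endothelial-like cluster 4 it was 3.43% and 11.4%. The level itself was not higher for every marker list: in mural-like cluster 6 the 11 endothelial markers summed to 22.2 in mock and 16.3 in ligated. The part of such RNA in the differences was not tested. Subtracting a matching share of the library mean kept all 7 higher calls and 9 of 10 lower calls in the 9 compared clusters.

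Promoter sequence of members whose levels differed between the libraries is shown for orientation, 1 window per gene, as the 250 bases before a RefSeq start site on GRCm38.p6, 5′ to 3′ on the gene's own strand. Efna1 (ephrin-A1) and Sema6d were both higher in the ligated library in endothelial-like cluster 4, Epha3 was higher in fibroblast-like cluster 3, and Ntn4 was lower in endothelial-like cluster 4 and mural-like cluster 6. The windows lie at chr3:89279646-89279895 on the minus strand (Efna1, the second of 2 start sites), chr2:124089719-124089968 on the plus strand (Sema6d, the first of 2), chr16:63864176-63864425 on the minus strand (Epha3) and chr10:93640799-93641048 on the plus strand (Ntn4). None overlaps an annotated exon, but the Efna1 and Ntn4 windows lie inside the annotated gene, downstream of its outermost start. Capitals mark matches on either strand to the GC box GGGCGG or the E-box CACGTG.
Efna1: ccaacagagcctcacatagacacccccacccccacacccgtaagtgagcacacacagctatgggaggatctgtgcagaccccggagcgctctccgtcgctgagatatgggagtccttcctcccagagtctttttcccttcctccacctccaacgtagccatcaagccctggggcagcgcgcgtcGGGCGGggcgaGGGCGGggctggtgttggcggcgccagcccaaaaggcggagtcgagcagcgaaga
Sema6d: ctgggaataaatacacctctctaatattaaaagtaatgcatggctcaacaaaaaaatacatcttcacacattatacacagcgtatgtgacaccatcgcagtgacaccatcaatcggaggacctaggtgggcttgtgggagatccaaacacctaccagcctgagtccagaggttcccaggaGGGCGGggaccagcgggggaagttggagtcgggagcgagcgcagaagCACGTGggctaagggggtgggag
Epha3: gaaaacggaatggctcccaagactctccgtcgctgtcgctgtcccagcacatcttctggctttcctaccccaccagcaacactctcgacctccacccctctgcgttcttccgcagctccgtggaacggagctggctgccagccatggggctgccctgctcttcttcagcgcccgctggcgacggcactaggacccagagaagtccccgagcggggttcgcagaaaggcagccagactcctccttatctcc
Ntn4: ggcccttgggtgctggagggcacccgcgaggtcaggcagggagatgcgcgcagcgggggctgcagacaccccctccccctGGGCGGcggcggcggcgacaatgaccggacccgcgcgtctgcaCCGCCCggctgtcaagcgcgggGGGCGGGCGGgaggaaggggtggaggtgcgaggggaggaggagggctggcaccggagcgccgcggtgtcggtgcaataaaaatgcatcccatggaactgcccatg

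The Efna1 window held 2 GC boxes, the Sema6d window 1 GC box and 1 E-box, and the Ntn4 window 4 GC boxes, of which the last 2 overlap. The Epha3 window held none of the 5 motifs searched. Of 32851 promoter windows of the same length, 32.7% held GGGCGG, 6.02% CACGTG, 12.4% the TATA box TATAAA, 6.75% the AP-1 site TGANTCA and 3.17% the forkhead site GTAAACA, searched on both strands. These are letter matches only. Of the 61 members, 53 had a promoter entry in the RefSeq table.

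With both libraries together, 31 of the 61 members reached a level of 0.5 in at least 1 of the 12 clusters, which is 50.8%, beside 33.6% of all genes. Among them were 14 of 20 semaphorins, 4 of 9 plexins, 2 of 3 ephrin-B ligands and 2 of 2 Slits. Of the other families, 1 of 5 ephrin-A ligands, 2 of 6 EphA receptors, 2 of 5 EphB receptors, 2 of 4 Robos, 1 of 3 netrins and 1 of 4 Unc5 receptors reached it. The number of members at 0.5 differed between clusters. It was 14 in endothelial-like cluster 4, 13 in endothelial-like cluster 0, and 12 each in Schwann-like cluster 9 and erythroid-like cluster 10. It was 6 in fibroblast-like cluster 3 and 5 each in mural-like cluster 6 and unnamed clusters 8 and 11. In natural killer-like cluster 1 and T cell-like cluster 2 there were 3 each, in macrophage-like cluster 5 there was 1, and in ductal-like cluster 7 there were 0. Genes at 0.5 in at least 1 library were also counted in the 9 compared clusters, with members in brackets. There were 2896 (3) for natural killer-like cluster 1, 2958 (3) for T cell-like cluster 2 and 2994 (12) for erythroid-like cluster 10. Macrophage-like cluster 5 had 3183 (2), ductal-like cluster 7 had 3255 (0) and fibroblast-like cluster 3 had 3762 (10). Endothelial-like cluster 0 had 3849 (14), endothelial-like cluster 4 had 3918 (16) and mural-like cluster 6 had 4069 (9). For clusters 8, 9 and 11 this was not counted. The part of gene number in the member counts was not tested. With the libraries together, another 3 members, Sema3a, Plxna1 and Efna5, reached 0.5 only in a cluster of the subset of cells described further on. The other 27 stayed below it in all 17 clusters, with a largest level of 0.479.

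**Figure D1:**
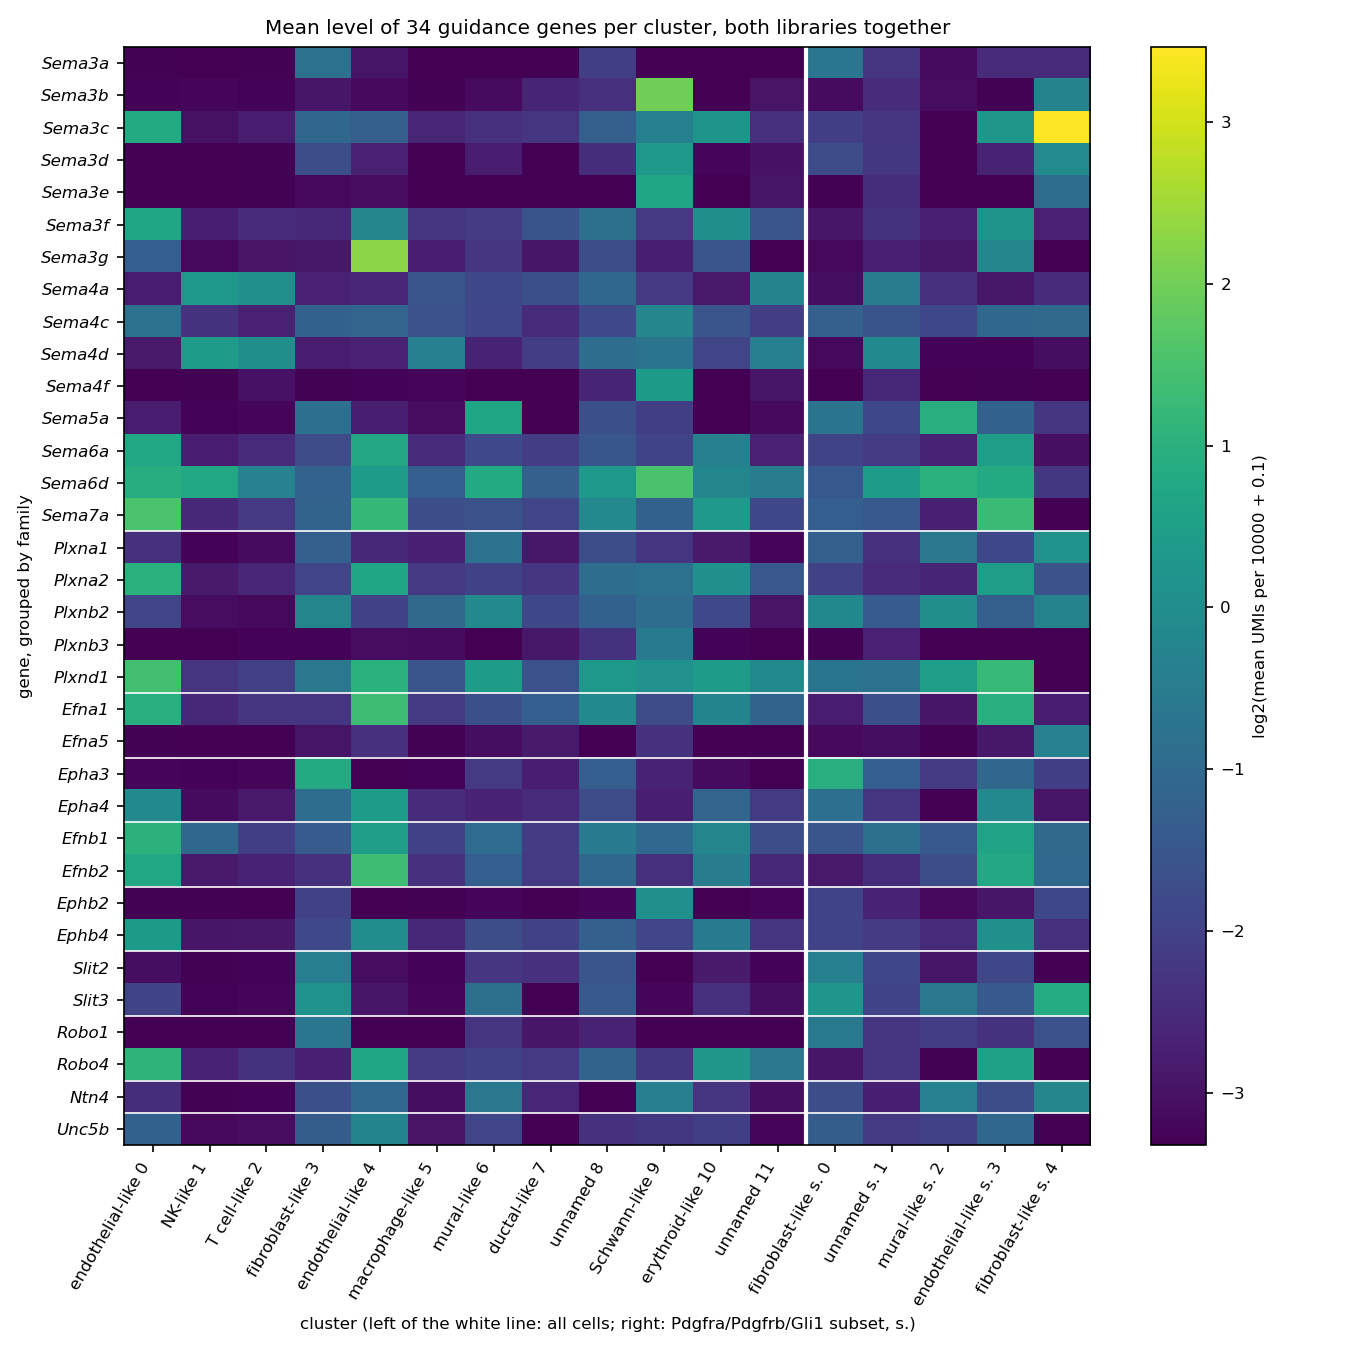
Levels of guidance genes (rows, grouped by family) in the clusters of all cells and of the subset (columns), both libraries together; colour is log2(level + 0.1), with levels in UMIs per 10000 UMIs of the cell. Single members are highest in different clusters: Sema3g stands out in endothelial-like cluster 4 at 4.78, Sema3b in Schwann-like cluster 9 at 3.87 and Epha3 in fibroblast-like cluster 3 at 1.67.

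Among the secreted class 3 semaphorins, the highest levels lay in different clusters. Sema3g, a semaphorin known from arteries, was at 4.78 in endothelial-like cluster 4 and at 0.311 in endothelial-like cluster 0, its next highest cluster. Cluster 4 is the cluster in which 8 of 8 arterial markers, but also 6 of 7 lymphatic markers, were at 0.2 or more. Sema3f was at 1.49 in endothelial-like cluster 0, 0.946 in erythroid-like cluster 10 and 0.780 in endothelial-like cluster 4. Sema3c was at 1.67 in endothelial-like cluster 0, 1.03 in erythroid-like cluster 10, 0.667 in Schwann-like cluster 9 and 0.374 in fibroblast-like cluster 3. Sema3b, Sema3d and Sema3e stood at 3.87, 1.16 and 1.52 in Schwann-like cluster 9, and this cluster held 93.8%, 72.9% and 96.1% of each gene's level summed over the 12 clusters. Sema3a was highest in fibroblast-like cluster 3, at 0.491.

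The membrane-bound semaphorins were spread more widely. Sema7a, which is lipid-anchored and binds integrin receptors, was at 2.80 in endothelial-like cluster 0 and 2.18 in cluster 4. Sema6a, a transmembrane semaphorin, was at 1.58 and 1.62 in the same clusters. Sema6d, of the same class, reached 0.5 in 9 of 12 clusters, from 2.78 in Schwann-like cluster 9 through 1.79 in endothelial-like cluster 0, 1.67 in mural-like cluster 6 and 1.57 in natural killer-like cluster 1 to 0.637 in unnamed cluster 11. Sema5a, a transmembrane semaphorin with thrombospondin repeats, was at 1.53 in mural-like cluster 6, which held 61.7% of its summed level. Sema4a and Sema4d, semaphorins known from lymphocytes, were at 1.12 and 1.24 in natural killer-like cluster 1 and at 0.962 and 0.932 in T cell-like cluster 2. Sema4d was also at 0.675 in macrophage-like cluster 5. Sema4f was at 1.19 and Sema4c at 0.787 in Schwann-like cluster 9.

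The plexins that reached 0.5 were Plxna2, Plxnb2, Plxnb3 and Plxnd1. Plxnd1, an endothelial receptor for Sema3e that is also used by other semaphorins, was at 2.55 in endothelial-like cluster 0 and 1.92 in cluster 4, and still at 1.21 in mural-like cluster 6, 0.983 in Schwann-like cluster 9 and 0.544 in fibroblast-like cluster 3. Plxnd1 was also at 1.25 in erythroid-like cluster 10, 1.12 in unnamed cluster 8 and 0.833 in unnamed cluster 11. Plxna2 was at 1.91 and 1.49 in endothelial-like clusters 0 and 4. Plxnb2 was highest in mural-like cluster 6, at 0.812, with 0.758 among the fibroblast-like cells of cluster 3. Plxnb3 was at 0.590 in Schwann-like cluster 9, with 76.4% of its summed level there.

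Ephrin ligands and Eph receptors were mostly endothelial. Efnb2 and Ephb4 form the ligand and receptor pair known for keeping arteries and veins apart: Efnb2 was at 2.48 in endothelial-like cluster 4 and 1.56 in cluster 0, whereas Ephb4 was at 0.901 in cluster 4 and 1.20 in cluster 0. Efnb1 was at 1.95 in endothelial-like cluster 0 and 1.28 in cluster 4. Efna1, the lipid-anchored ligand first found as an endothelial gene induced by cytokines, was at 2.48 in endothelial-like cluster 4 and 1.80 in cluster 0. Epha4, a receptor for both ephrin classes, was at 1.25 and 0.857 in these clusters. Epha3, a receptor for A-class ephrins, was at 1.67 in fibroblast-like cluster 3, with 74.3% of its summed level there. Ephb2 was at 0.964 in Schwann-like cluster 9, with 84.0%.

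Slits and their receptors divided between mesenchymal and endothelial clusters. The ligands Slit3 and Slit2 were highest in fibroblast-like cluster 3, at 1.02 and 0.652, and the receptor Robo1 was at 0.538 in the same cluster. Robo4, the endothelial member of the Robo family, was at 2.03 in endothelial-like cluster 0. Ntn4, a netrin of basement membranes, was at 0.643 in Schwann-like cluster 9 and 0.553 in mural-like cluster 6. Unc5b, the vascular netrin receptor, was at 0.736 in endothelial-like cluster 4. Of the 31 members at 0.5 in a cluster with both libraries together, 25 also reached it in a compared cluster in at least 1 library. For 21 of these 25 the highest compared cluster was the same in mock and ligated. The exceptions were Plxna2, Sema6d, Robo4 and Plxnb2.

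Ligated and mock were compared in the 9 clusters. The members reached 0.5 in at least 1 library in 69 pairs of member and cluster. Of these, 7 were higher in the ligated library by the size rule, beside a background of 6.89% of all gene and cluster pairs, and 10 were lower, beside 4.17%. The calls fell on 10 members: Efna1, Sema6d, Epha3 and Sema5a were called higher, and Sema3c, Ntn4, Plxna2, Plxnb1, Plxnb2 and Plxnd1 were called lower. No member was called in both directions. The lower calls were split between 1 semaphorin, 4 plexins and 1 netrin, and the higher calls between 2 semaphorins, 1 ephrin and 1 Eph receptor.

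**Figure D2:**
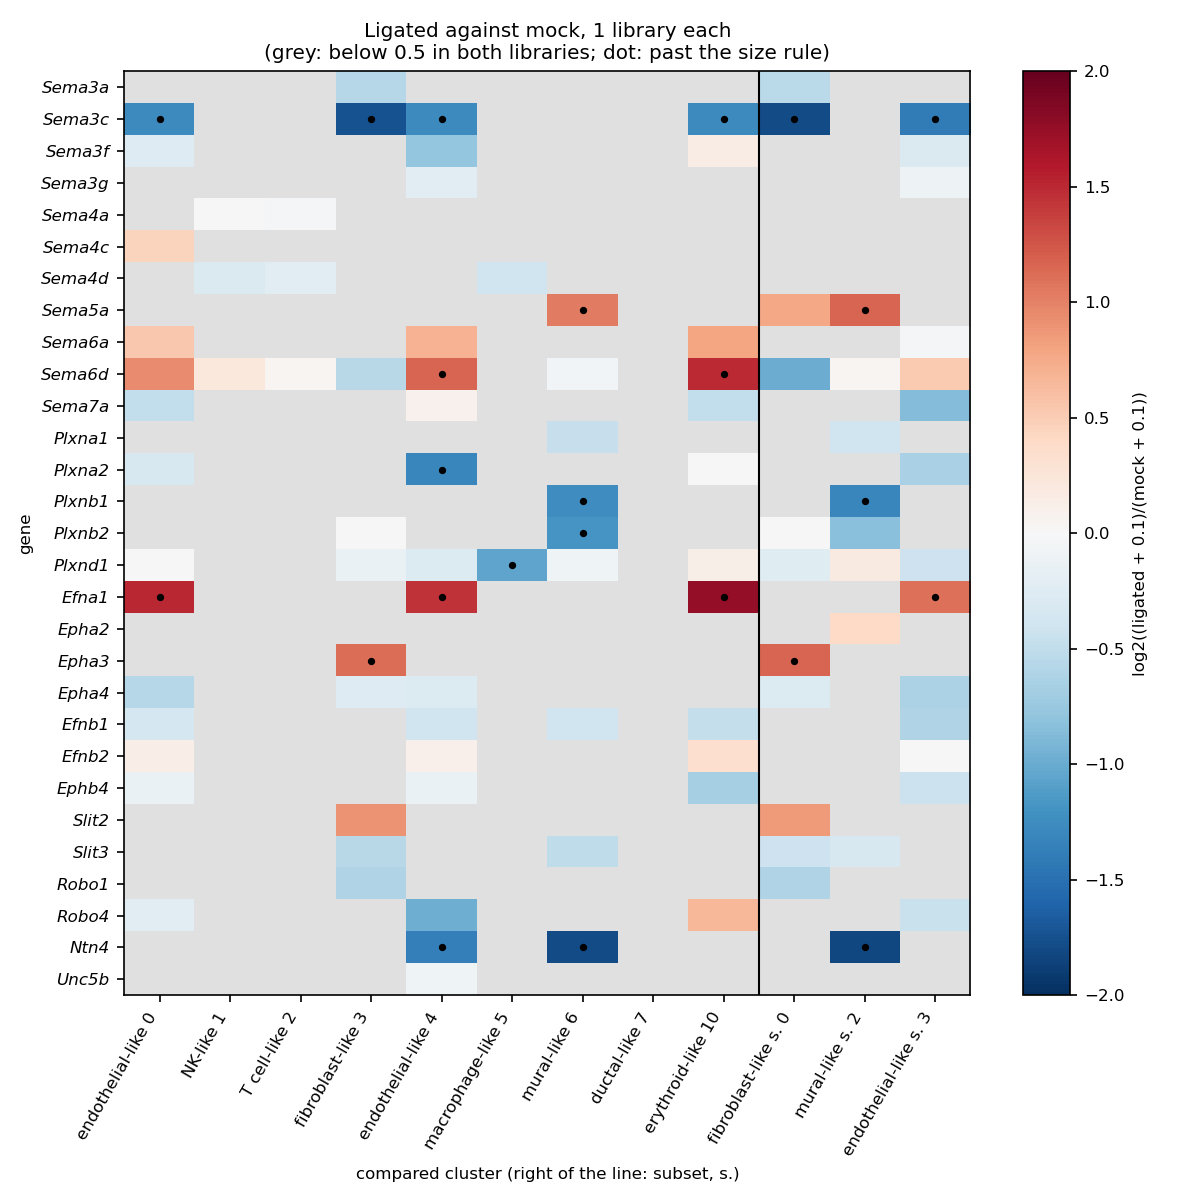
Difference between ligated and mock, as log2((ligated + 0.1)/(mock + 0.1)), for members that reached 0.5 in either library of a compared cluster; grey cells are below 0.5 in both libraries, and dots mark calls. Efna1 is positive in both endothelial-like clusters, at 1.51 and 1.44, whereas Sema3c is negative in endothelial-like clusters 0 and 4 and in fibroblast-like cluster 3, at -1.28, -1.27 and -1.75.

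In endothelial-like cluster 0, the larger endothelial cluster with 2363 mock and 2948 ligated cells, 1 of the 14 members that reached 0.5 was called higher (background 3.92%) and 1 lower (2.68%). The ligand Efna1 was at 0.838 in mock and 2.58 in ligated, 3.08-fold higher, a difference of 1.51. The ligand Sema3c was at 2.52 in mock and 0.982 in ligated, 2.57-fold lower, a difference of -1.28. The membrane-held ephrin and the secreted semaphorin thus differed in opposite directions in the same cluster. Sema6d, at 1.15 and 2.30, came next with a difference of 0.94, under the size rule. The remaining endothelial members differed less. The plexin Plxnd1 was at 2.55 in both libraries, a difference of -0.00, and the receptor Robo4 was at 2.20 and 1.89, a difference of -0.21. Sema7a was at 3.35 and 2.36, a difference of -0.49. The arteriovenous pair was nearly level, with Efnb2 at 1.48 and 1.62 (0.13) and Ephb4 at 1.27 and 1.15 (-0.13). Over the 14 members the median difference was -0.17, against 0.01 over all genes that reached 0.5. Markers moved in this cluster as well: the 11 endothelial markers summed to 202 in mock and 167 in ligated. Single markers went both ways, with Kdr at 31.2 and 16.8 and Pecam1 at 14.5 and 18.3. The 8 arterial markers summed to 2.35 and 3.32. The part of these shifts in the calls was not tested.

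In endothelial-like cluster 4, with 226 mock and 531 ligated cells, 2 of 16 members were called higher (background 3.29%) and 3 lower (2.81%). Efna1 was at 1.07 in mock and 3.08 in ligated, 2.88-fold higher, close to its fold in cluster 0. Sema6d was at 0.607 and 1.49, 2.46-fold higher, a difference of 1.17. Among receptors, Plxna2 was at 2.63 in mock and 1.01 in ligated, 2.62-fold lower, a difference of -1.30. In cluster 0 it was at 2.16 and 1.70, a difference of -0.33, and whether the clusters differ was not tested. Ntn4 was at 0.774 and 0.239, a difference of -1.37, and Sema3c at 0.608 and 0.194, a difference of -1.27. Other members of high level in this cluster were not called: Sema3g was at 5.29 in mock and 4.55 in ligated (-0.21), and Efnb2 at 2.35 and 2.53 (0.10). Sema7a, at 2.08 and 2.22, differed by 0.09. Robo4, at 2.34 and 1.14, differed by -0.97, just under the size rule. The summed levels of the 8 arterial markers were 24.7 in both libraries, and those of the 7 lymphatic markers 9.54 in mock and 10.8 in ligated. Within these sums single markers moved in both directions. The arterial Gja4 was at 3.94 in mock and 6.75 in ligated, and Bmx at 1.73 and 0.649. The lymphatic Ccl21a was at 5.73 and 7.56, and Lyve1 at 0.830 and 0.584. The part of these shifts in the calls was not tested. The median difference over the 16 members was -0.25, against -0.00 over all genes.

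In erythroid-like cluster 10, with 85 mock and 60 ligated cells, 2 of 12 members were called higher (background 23%) and 1 lower (2.14%). Efna1 was at 0.325 and 1.33 (1.75), Sema6d at 0.395 and 1.29 (1.49) and Sema3c at 1.40 and 0.519 (-1.27). The same 3 genes, in the same directions, were the largest differences of endothelial-like cluster 0, and cluster 10 carried the full set of endothelial markers, summing to 91.6 in mock and 79.1 in ligated. It also held 8 of 9 macrophage markers, summing to 23.9 and 52.5, while its 6 erythroid markers summed to 4415 and 1921. The part of these shifts in the 3 differences was not tested. The median over all genes was 0.56 in this cluster, so its higher calls stand on a shifted scale; relative to that median Sema6d differed by 0.93.

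**Figure D3:**
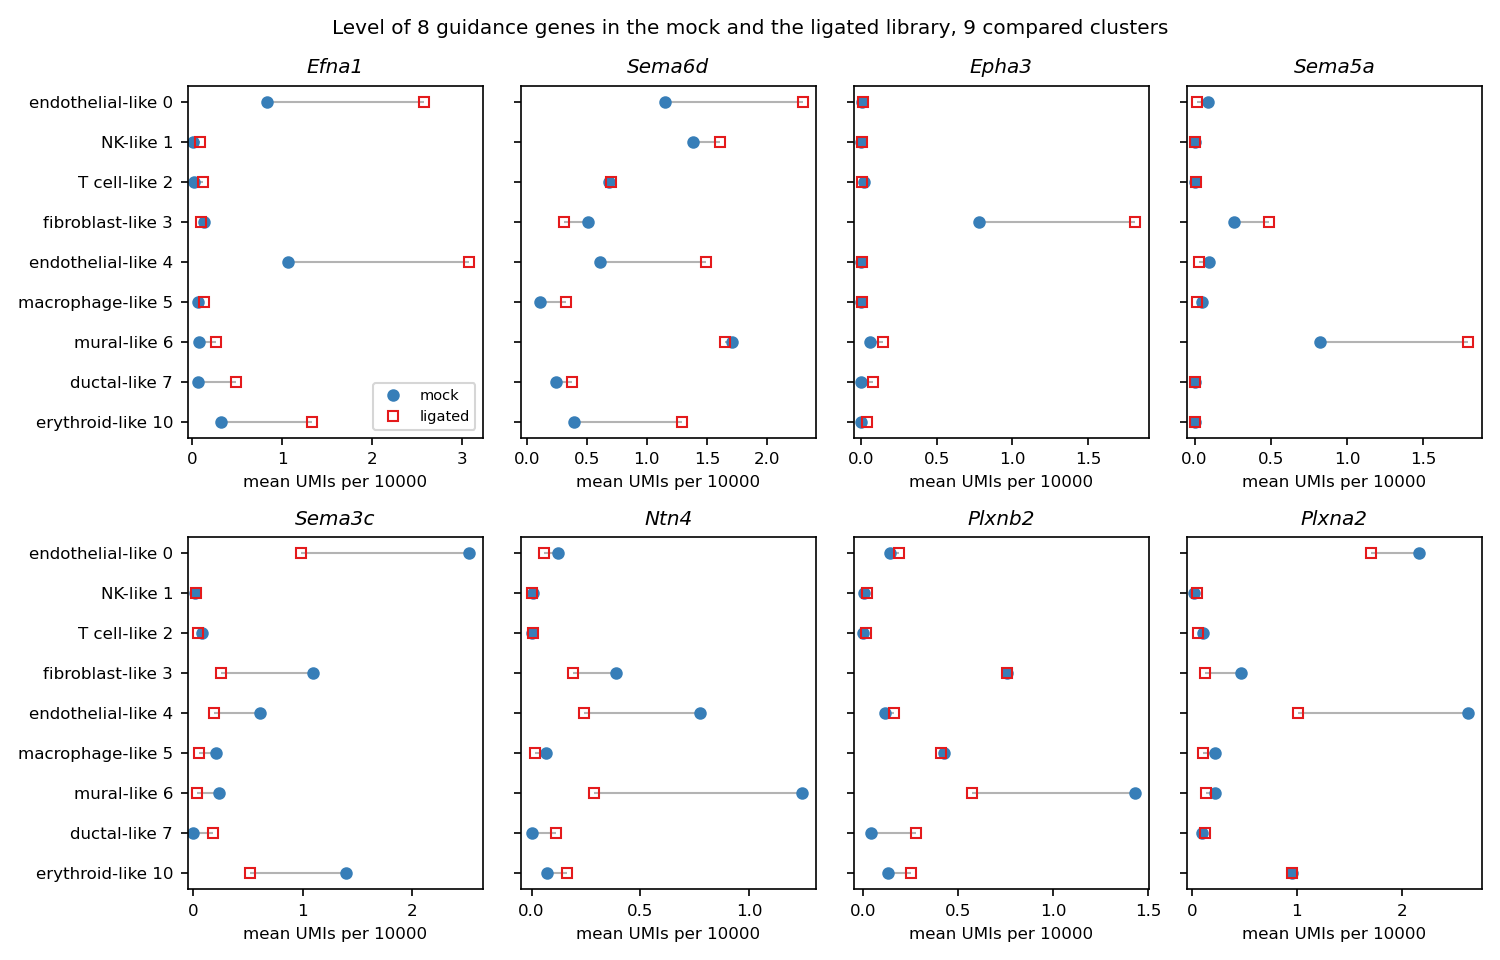
Level in the mock and the ligated library, in UMIs per 10000 UMIs of the cell, of 8 of the 10 members called in at least 1 compared cluster (Plxnb1 and Plxnd1 are not drawn); filled circles are mock and open squares ligated, each point is 1 library and there are no error bars because each group has 1 library. Efna1 goes from 0.838 to 2.58 in endothelial-like cluster 0, and Ntn4 from 1.25 to 0.288 in mural-like cluster 6.

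In fibroblast-like cluster 3, with 188 mock and 1149 ligated cells, 1 of 10 members was called higher (background 4.47%) and 1 lower (5.32%). The receptor Epha3 was at 0.778 in mock and 1.81 in ligated, 2.33-fold higher, a difference of 1.12. Sema3c was at 1.09 and 0.256, 4.27-fold lower, a difference of -1.75. The Slit ligands pointed opposite ways without a call: Slit2 was at 0.333 and 0.704 (0.89), and Slit3 was at 1.44 in mock, with a difference of -0.55. Their receptor Robo1 was at 0.804 and 0.494 (-0.61), and Sema3a at 0.725 and 0.453 (-0.58). Plxnb2 was at 0.756 and 0.758, a difference of 0.00. The summed level of the 11 fibroblast markers was 538 in mock and 360 in ligated, and the part of this shift was not tested. The median over the 10 members was -0.41, against -0.06 over all genes.

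In mural-like cluster 6, with 161 mock and 420 ligated cells, 1 of 9 members was called higher (background 4.92%) and 3 lower (4.5%). Sema5a was at 0.825 in mock and 1.79 in ligated, 2.18-fold higher, a difference of 1.03. Ntn4 was at 1.25 and 0.288, 4.33-fold lower, a difference of -1.80, the largest lower difference among the calls in the 9 clusters. The plexins Plxnb2, at 1.43 and 0.575 (-1.18), and Plxnb1, at 0.596 and 0.195 (-1.24), were both lower. Markers moved in this cluster too: the summed level of the 10 mural markers was 218 in mock and 136 in ligated, with the smooth muscle genes Myh11 at 14.4 and 4.20 and Tagln at 30.7 and 13.3. The 5 myoepithelial markers, 4 of them at 0.2 or more, summed to 2.53 and 5.97, and the 9 natural killer markers to 0.0921 and 7.16. The 11 endothelial markers summed to 22.2 and 16.3, and the 6 erythroid markers to 8.73 and 1.32. The part of these markers' shifts in the differences was not tested. Exons of Plxnb1 overlap those of Gm7628 on the other strand. Sema6d, at 1.71 and 1.65, and Plxnd1, at 1.27 and 1.19, differed by -0.05 and -0.09. A level of 0.5 in the mock cells of this cluster rests on about 52.6 UMIs at the median recovered depth, and Plxnb1 had the lowest mock level of the 4 called members. The median over the 9 members was -0.47, against -0.07 over all genes.

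Few members reached 0.5 in the immune clusters, and 1 of them was called, in macrophage-like cluster 5. In natural killer-like cluster 1, 0 of 3 members were called higher (background 3%) and 0 lower (1.55%): Sema6d was at 1.38 in mock and 1.61 in ligated, Sema4d at 1.47 and 1.19, and Sema4a at 1.13 and 1.12. In T cell-like cluster 2 again 0 of 3 were called higher (background 3.08%) and 0 lower (2.27%), with Sema4a at 0.983 and 0.960 and Sema4d at 1.07 and 0.916. In macrophage-like cluster 5, 0 of 2 were called higher (background 4.15%) and 1 lower (4.34%). This was Plxnd1, at 0.547 in mock and 0.212 in ligated, where a level of 0.5 in mock rests on about 43.0 UMIs. Subtraction of the library mean takes its mock level to 0.356, under the floor of 0.5, so the call ends although the difference grows to -2.19. Sema4d was at 0.891 and 0.650 there (-0.40). No member reached 0.5 in ductal-like cluster 7, where 14.8% of all genes that did were called higher and 11.6% lower.

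Schwann-like cluster 9 had 17 mock and 271 ligated cells and was not compared. Its ligated values, on which the levels above mostly rest, were 3.79 for Sema3b, 2.88 for Sema6d, 1.55 for Sema3e, 1.26 for Sema4f, 1.20 for Sema3d and 0.996 for Ephb2. The mock values were 5.08, 1.22, 0.981, 0.230, 0.411 and 0.462 in the same order. At the median recovered depth 1 UMI in the 17 mock cells makes a level of about 0.126. The lower mock values thus rest on very few UMIs, and no difference is read from them. The cells of this cluster came mostly from the ligated library, so these levels describe it more than the mock library.

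The authors also deposited a subset of cells chosen through Pdgfra, Pdgfrb and Gli1, in 5 clusters. These are cells of the same 2 libraries, so the values are a second view of the same data and no replicate. In the 3 clusters compared, 34 pairs of member and cluster reached 0.5, of which 3 were higher (background 5.12%) and 4 lower (4.58%). In fibroblast-like subset cluster 0, 1 of 11 members was called higher (4.75%) and 1 lower (5.31%): Epha3, at 0.818 and 1.97 (1.17), and Sema3c, at 0.501 and 0.0739 (-1.79). Subtraction of the library mean takes the mock level of Sema3c there to 0.451, under the floor of 0.5. That call thus ends, although the difference is then -1.90. Of the subset calls, subtraction kept 3 of 3 higher and 3 of 4 lower. In mural-like subset cluster 2, 1 of 9 was called higher (4.26%) and 2 lower (4.26%). These were Sema5a at 0.938 and 2.22 (1.16), Ntn4 at 1.47 and 0.342 (-1.83), and Plxnb1 at 0.733 and 0.236 (-1.31). Plxnb2, at 1.38 and 0.722, differed by -0.84 and was not called. The 5 myoepithelial markers summed to 0.397 in mock and 0.235 in ligated there, with 0 of 5 at 0.2 or more, and the 10 mural markers to 229.6 and 154. In endothelial-like subset cluster 3, where 10 of 11 fibroblast and 10 of 10 mural markers were also at 0.2 or more, 1 of 14 was called higher (6.29%) and 1 lower (4.23%): Efna1 at 0.915 and 2.09 (1.11), and Sema3c at 2.17 and 0.765 (-1.39). In this cluster the summed endothelial markers were 184 in mock and 117 in ligated, fibroblast markers 32.9 and 88.0, mural markers 20.7 and 12.8 and erythroid markers 26.6 and 1.37, and their part in the calls was not tested.

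A small group of cells held much of the Sema3c among the fibroblasts. Fibroblast-like subset cluster 4 held 10 mock and 17 ligated cells, and Sema3c was at 10.6 in mock and 11.1 in ligated there, beside 0.501 and 0.0739 in fibroblast-like subset cluster 0. For 50 genes the summed level of these cells equalled that of a whole cluster of all cells, each time fibroblast-like cluster 3. This places cells of the group there but does not show that all of them lie there. If all do, they were 5.32% of the mock and 1.48% of the ligated cells of that cluster. They would then carry 51.4% and 64.3% of its summed Sema3c. On the same condition, Sema3c in cluster 3 without them was at 0.562 in mock and 0.0928 in ligated. That is a difference of -1.78, beside -1.75 with them. The other members at 0.5 or more in these cells included Slit3 at 1.73, Plxna1 at 0.994, Sema3d at 0.873, Ntn4 at 0.788, Sema3b at 0.722 and Efna5, a lipid-anchored ephrin, at 0.702, both libraries together.

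**Figure D4:**
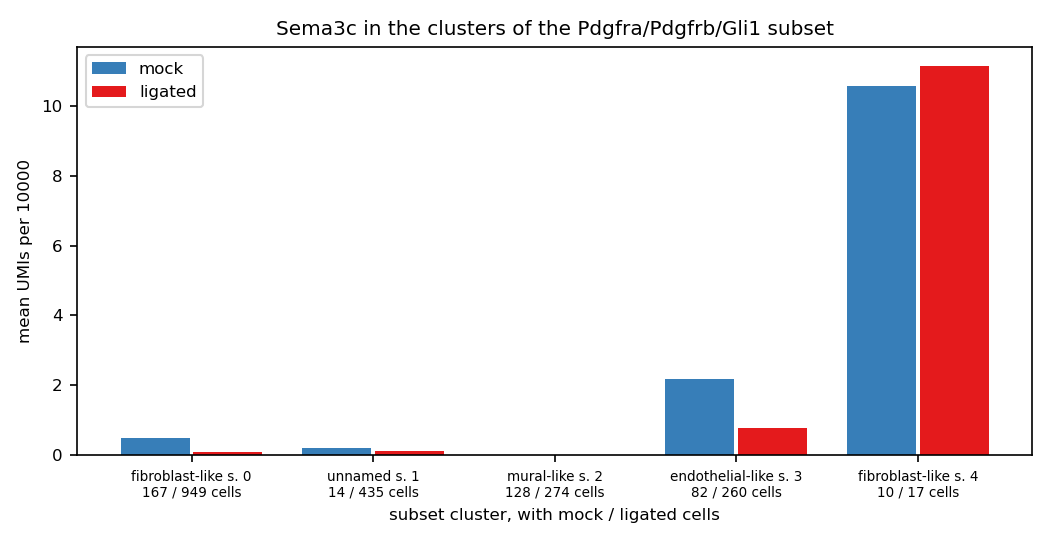
Sema3c level, in UMIs per 10000 UMIs of the cell, in the 5 subset clusters; blue bars are mock and red bars ligated, and each bar is 1 library. The 10 mock and 17 ligated cells of subset cluster 4 sit at 10.6 and 11.1, far above subset cluster 0 at 0.501 and 0.0739.

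Over whole libraries the share of each cell type enters too. The library mean of Sema3c was 1.55 in mock and 0.336 in ligated, and with the ligated clusters weighted by the mock cell numbers it was 0.606. For Efna1 the library means were 0.552 and 0.922, and the weighted ligated mean was 1.71.

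The other genes of these pathways, coreceptors and cytoplasmic effectors, were taken as 5 lists of 89 genes, of which 86 had a row. Among all genes the shares called higher and lower were 3.92% and 2.68% in endothelial-like cluster 0, 3.29% and 2.81% in cluster 4, and 4.15% and 4.34% in macrophage-like cluster 5; of the lists, 0 of 35, 0 of 33 and 0 of 25 were called there in either direction. In fibroblast-like cluster 3, 1 of 39 was called higher (background 4.47%) and 2 lower (5.32%), close to the shares over all genes. Dpysl2, an effector of semaphorin signalling on microtubules, was at 1.89 and 0.792 (-1.16), Dapk1, a kinase that binds Unc5 receptors, at 2.15 and 0.933 (-1.12), and Rgs3, a G protein regulator that binds ephrin-B, at 0.332 and 0.770 (1.01). In mural-like cluster 6, 2 of 35 were called higher (background 4.92%) and 1 lower (4.5%), again close to them. Itgb1, the integrin chain that binds Sema7a, was at 14.2 and 6.11 (-1.20), Plxdc2 at 0.151 and 0.542 (1.36), and Evl, an actin regulator, at 0.229 and 0.568 (1.02). After subtraction of the library mean Evl differed by 0.35 and Rgs3 by 0.88, both under the size rule.

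Neuropilins, the coreceptors of class 3 semaphorins and of VEGF, were read in the same clusters. Nrp1 was at 18.1 in mock and 10.8 in ligated in endothelial-like cluster 0 (-0.74), and at 18.0 and 8.48 in endothelial-like subset cluster 3 (-1.07). It was at 6.53 and 6.77 in endothelial-like cluster 4 and at 3.49 and 4.64 in fibroblast-like cluster 3. Nrp2 was at 1.51 and 2.26 in endothelial-like cluster 0 (0.55). Past the size rule were also Nrp1 in ductal-like cluster 7, at 0.144 and 1.20 (2.42), and Nrp2 in erythroid-like cluster 10, at 0.727 and 1.57 (1.02). The shares of all genes called higher there were 14.8% and 23%.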

How the data were processed

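Droplet single-cell libraries, 1 ligated and 1 mock, were measured. Per the submitters' processing notes, Cell Ranger 6.0.1, Seurat and the build mm10 were used; filters on cells, treatment of doublets and clustering parameters are not given in the sources used here, and no doublets were called here. The authors deposited 4 tables of cluster means, for 12 clusters of all cells and 5 of a subset, each with the libraries joined and split. These values are linear means over cells of UMIs per 10000 UMIs, a unit read from the values: each column sums to 10000. They are not counts, so no count model was fitted. Dates stood in place of 21 gene symbols where libraries were split; row order restored them. Columns without a sample numbered 0.

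Cell numbers were recovered from the weights that join the split values and from genes seen in single cells, and approximate UMI numbers from totals that favour deep cells. The cell numbers and the size rule were checked on simulated data, and the UMI numbers were not. Samples were grouped by treatment. Clusters were compared where each library had at least 50 cells, by log2 ratios with a pseudocount of 0.1, which understates differences of low genes. A gene is called at a higher value of at least 0.5 and a difference of at least 1. Cluster names rest on marker lists. Members are named with levels at 0.5 or more in a cluster, and differences where called or where both libraries reach 2; differences of further members are given as context and were chosen after their values were seen. Members and lists were chosen with earlier results of these data known. Alternatives were the pseudocount, level floor, size, subtraction of the library mean, centring, and leaving out clusters 7 and 10. Promoters are from RefSeq (GRCm38.p6), exons from GENCODE. Python 3.11.15 with numpy 2.4.6, pandas 2.3.3 and matplotlib 3.10.9 was used.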

Additional observations from a re-analysis of the deposited data

How the results depend on the processing

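No paired analysis was possible because each group is 1 library. For the same reason no library could be left out. A pseudocount of 1 left 0 of 7 higher and 0 of 10 lower calls in the clusters of all cells and 0 higher and 0 lower in the subset, because it shrinks differences of genes near that level. Taking genes with a higher value of at least 0.2 gave 19 higher and 16 lower calls, and 8 higher in the subset. At least 2 left 2 higher and 2 lower, and 1 lower in the subset. A size of at least 1.5 left 2 higher and 2 lower, and in the subset 0 higher and 2 lower. The 31 members at 0.5 became 45 at 0.2 and 23 at 1. A pseudocount of 0.01, subtraction of the library mean, centring, and leaving out clusters 7 and 10, which was chosen after seeing the data, kept all counts within 1.5 times; centring moved the split from 7 higher and 10 lower to 6 and 13. Of 30 named differences, 0 reversed, and 24 passed below the rule with a pseudocount of 1. Depth limits erythroid-like cluster 10 most among the clusters of all cells with calls: a level of 0.5 rests on about 31.8 UMIs in its ligated and 45.8 in its mock cells, beside 43.0 in mock macrophage-like and 52.6 in mock mural-like cells.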
